A study of Homo sapiens with 6 samples.

Results

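PPARG and 8 of its target genes of fatty acid uptake, binding, storage and oxidation (FABP4, FABP5, CD36, LPL, PLIN2, ANGPTL4, PDK4 and CPT1A) were described in macrophages in which a long noncoding RNA had been targeted. The genes were taken by name from a list of 9, and all 9 had a row among the 17042 genes of the counts table. The cells were THP-1, a human monocytic leukaemia line that turns macrophage-like under phorbol ester. Every library came from cells held with 100 ng/mL PMA for 24 hours and then with 20 ng/mL IL-4 for 24 hours, as the labels state. The 3 control libraries are labelled wild type, with no word on which siRNA or reagent they received. The 3 knockdown libraries came from cells given siRNA against RP11-184M15.1, delivered with a lipid reagent ahead of the IL-4 step. All libraries stem from 1 cell line, and the labels do not say whether the 3 libraries of a group were separate cultures, so the p-values cover only differences among these libraries, possibly technical ones.

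PPARG encodes PPAR gamma, a nuclear receptor that is activated by fatty acids and their derivatives, pairs with a retinoid X receptor (RXR) and binds DNA at direct repeats of a short half-site. In macrophages IL-4 raises PPARG through the transcription factor STAT6, and the receptor in turn switches on genes that take up, bind and store fatty acids. CD36 carries fatty acids and oxidized lipoprotein across the membrane, LPL frees fatty acids from circulating triglyceride, FABP4 and FABP5 carry them inside the cell, and PLIN2 coats the droplets in which they are stored. CPT1A admits them to mitochondria for oxidation, PDK4 shuts off pyruvate dehydrogenase when fat is burned, and ANGPTL4 is a secreted inhibitor of LPL.

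Sequence before the start site of 2 members is shown because the receptor's half-site and the STAT6 site can be read in it. The first is PPARG, 250 bases on the plus strand at chr3:12287118-12287367, and the second CD36, 250 bases on the plus strand at chr7:80638266-80638515 (RefSeq, GRCh38.p14). Capitals mark the half-site AGGTCA in PPARG and the STAT6 word TTCNNNNGAA in CD36.
PPARG: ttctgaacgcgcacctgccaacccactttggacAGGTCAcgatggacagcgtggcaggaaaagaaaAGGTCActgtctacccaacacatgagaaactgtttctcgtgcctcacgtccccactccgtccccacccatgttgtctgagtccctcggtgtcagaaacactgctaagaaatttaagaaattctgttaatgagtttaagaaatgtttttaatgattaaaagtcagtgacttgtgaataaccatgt
CD36: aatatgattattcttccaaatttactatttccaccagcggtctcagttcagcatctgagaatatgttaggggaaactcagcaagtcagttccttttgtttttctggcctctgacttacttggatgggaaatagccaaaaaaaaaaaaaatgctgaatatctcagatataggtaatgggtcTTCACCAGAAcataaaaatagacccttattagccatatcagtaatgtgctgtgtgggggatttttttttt
RefSeq start-site windows of 300 bases (250 before the start and 50 after) matched 6 of the 9 members, with 16 windows in all, 6 each for PPARG and CD36 and 1 each for PLIN2, ANGPTL4, PDK4 and CPT1A. FABP4, FABP5 and LPL had no window and were not searched. Both strands were searched. The half-site AGGTCA was in 3 of the 16 windows, all of PPARG and 2 of them overlapping, and in 13.8% of all 35116 windows. The full repeat AGGTCANAGGTCA, which contains the half-site at each end, was in none of the 16 and in 0.0228% of all windows. A word this rare would be absent from nearly any 16 windows, so its absence says nothing about the members. TTCNNNNGAA was in 2 of the 16, which are overlapping windows of CD36, and in 6.44% of all windows. These are matches of letters and do not show binding.

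Library totals ran from 10450043 to 14181343 counts. Levels are counts scaled to library size with TMM factors (CPM), and 3 counts in a library came to between 0.21 and 0.288 CPM. All 10 macrophage markers listed (CD68, CD14, CSF1R and others) were measured, with summed levels of 7972 to 8341 CPM in the controls and 7927 to 8498 CPM in the knockdown libraries. Among them CTSD was the highest at 3431 CPM and MRC1 the lowest at 1.76 CPM in the controls, so the sum mostly follows the abundant markers. Of 7 adipocyte markers, a cell type that also uses PPARG, 2 were measured, the complement factor CFD at 61.1 CPM and the lipase LIPE at 0.454 CPM in the controls. Of 8 undifferentiated myeloid markers 6 were measured, with AZU1 highest at 58.8 CPM in the controls. Their summed levels were 83.2 to 91.8 CPM in the controls and 75.6 to 82.3 CPM in knockdown. All 5 that could be tested had a log2 fold change below 0, and none was called. A link to the members was not tested. Of 9 lymphocyte and stromal markers 4 were measured, with PECAM1, which myeloid cells also make, at 715 CPM and the others under 2.1 CPM in either group. The 13 mitochondrially encoded mRNAs took 1.88% to 2.54% of the counts in the controls and 2.02% to 2.1% in the knockdown libraries.

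Across the 9 genes, FABP4 fell, LPL rose, and the receptor itself and 5 further targets gave no call. In knockdown FABP4 was 22.4% lower and LPL 16.8% higher. Of the 8 members that could be tested, 1 passed an adjusted p of 0.05 in each direction in edgeR's quasi-likelihood test. Over all 13405 genes tested, 2.83% were called, 1.22% higher and 1.61% lower. The 3 knockdown libraries lay wholly below the 3 controls for FABP4, FABP5 and PDK4 and wholly above them for LPL. PDK4 passed the filter on low counts only through the control libraries, which favours a lower value in knockdown. Its place below the controls is therefore not read as a result. Over all genes tested, 20.0% did not overlap between groups, 10.4% with knockdown below and 9.58% with knockdown above. The members were chosen with earlier results on these libraries known, so their share is a description. The median log2 fold change was 0.02 over the 8 tested members, PDK4 included, and 0.00 over all genes tested.

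**Figure D1:**
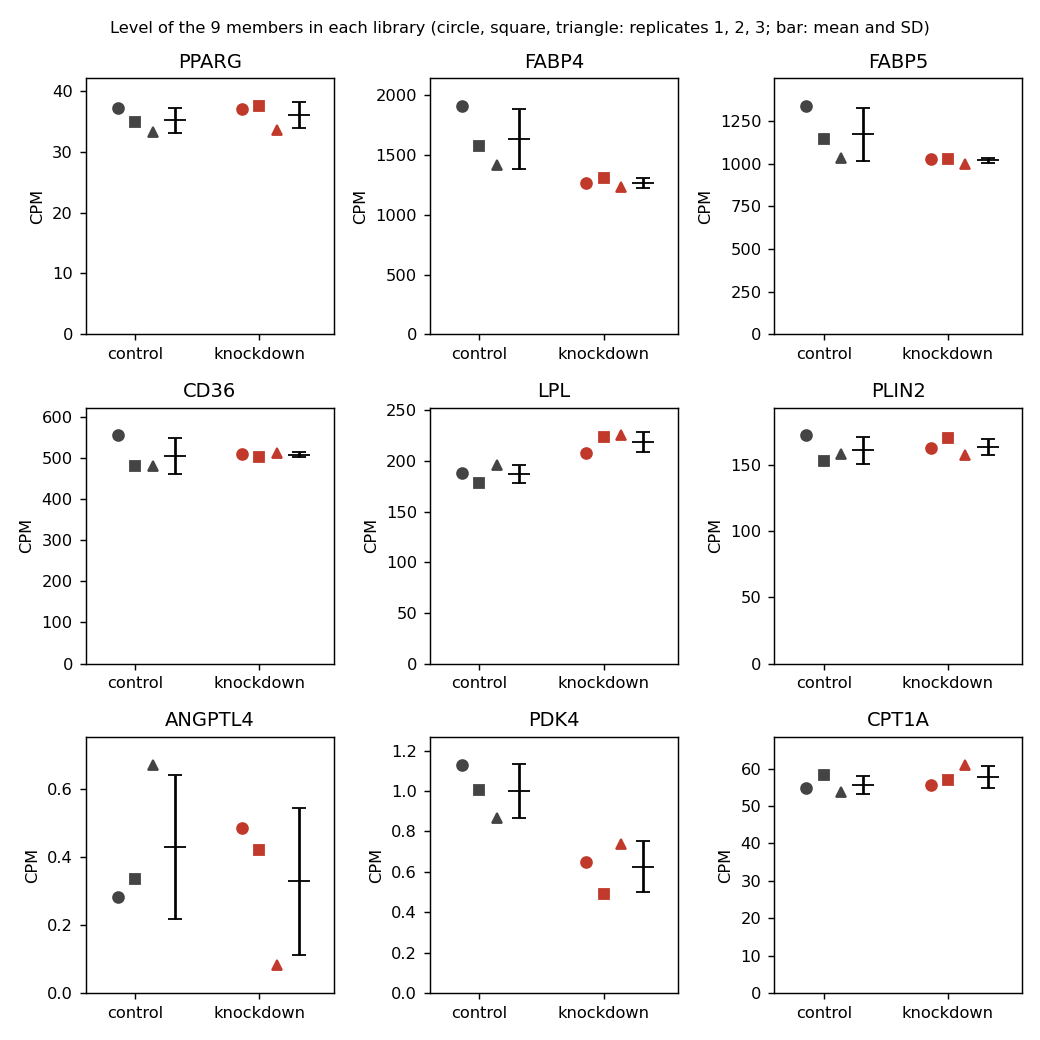
CPM (y axes, linear from 0) of each of the 9 members in the 3 control and 3 knockdown libraries, with 1 symbol per replicate number and a bar for the mean and SD. FABP4 sits between 1231 and 1311 CPM in knockdown, below all controls, and LPL between 207.6 and 225.6 CPM, above all controls.

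The receptor itself gave no call. PPARG (ENSG00000132170.20, GRCh38 chromosome 3, 12287368 to 12434356, plus strand) was at 37.3, 34.97 and 33.3 CPM in the controls and at 37.0, 37.6 and 33.6 CPM in the knockdown libraries. The groups overlapped throughout. Its log2 fold change was 0.04 with a 95% interval from -0.12 to 0.19 (edgeR adjusted p = 0.865), so a change of the size seen for FABP4 lies outside the interval. The 3 of 9327 genes whose log2 CPM followed PPARG most closely over the 6 libraries were SNHG7 (Pearson r = 0.99), MYDGF (0.98) and SRRD (0.98), given as a description of these 6 libraries with no test.

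The uptake receptor gave no call either. CD36 (ENSG00000135218.18, chromosome 7, 80369575 to 80679277, plus strand), a scavenger receptor and fatty acid carrier, was at 555.8, 480.3 and 480.0 CPM in the controls and at 508.9, 501.6 and 513.2 CPM in knockdown. Control 1 was the highest library, and the knockdown libraries fell between it and the other controls. The log2 fold change was 0.01 (95% interval -0.11 to 0.12, edgeR adjusted p = 0.967).

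The 2 fatty-acid-binding proteins were the most abundant members and lay lower in every knockdown library. FABP4 (ENSG00000170323.8, chromosome 8, 81478419 to 81483263, minus strand), the carrier typical of adipocytes and macrophages, was at 1913, 1573 and 1419 CPM in the controls and at 1263, 1311 and 1231 CPM in knockdown. Control 1 stood highest, and even the lowest control was above all knockdown libraries. FABP4 fell from a mean of 1635 ± 253 CPM to 1268 ± 40.6 (SD, n = 3 per group), a log2 fold change of -0.37 ± 0.08 (SE; 95% interval -0.53 to -0.20, edgeR adjusted p = 0.0167). DESeq2 did not call it (adjusted p = 0.101), and edgeR's adjusted p was 0.060 when control 2 was left out and 0.0659, 0.0849 and 0.11 when knockdown 1, 2 or 3 was. Without control replicate 1 the log2 fold change was -0.24 (edgeR adjusted p = 0.00305), and without control replicate 3 it was -0.45 (0.000539).

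FABP5 (ENSG00000164687.10, chromosome 8, 81280363 to 81284777, plus strand), the epidermal-type carrier, was at 1338, 1145 and 1031 CPM in the controls and at 1028, 1027 and 999.6 CPM in knockdown. The groups did not overlap, but the lowest control and the highest knockdown library differed by less than the spread within the knockdown group. The log2 fold change was -0.20 ± 0.07 SE (95% interval -0.35 to -0.06), and the adjusted p in edgeR was 0.146. It was -0.28 with an edgeR adjusted p of 0.00725 without control replicate 3, and -0.10 (0.259) without control replicate 1.

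FABP5 shares sequence with a row of its own in the table. FABP5P7, a processed pseudogene on chromosome 11 (59781318 to 59781722, minus strand, overlapping STX3 on the opposite strand), has 375 distinct words of 31 bases, and 375 of them (100%) also occur in FABP5 transcripts. Reads from those bases cannot be assigned to 1 of the 2 genes by sequence. FABP4 transcripts share 0 of their 1419 words with FABP5. Of 13 annotated FABP5 copies in GENCODE, FABP5P7 was the 1 with a row here.

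FABP5P7 was at 369, 318 and 271.3 CPM in the controls and at 255.4, 238.3 and 259.1 CPM in knockdown. All knockdown libraries were below all controls, as for FABP5. Its log2 fold change was -0.35 ± 0.08 SE (edgeR adjusted p = 0.0264, and 0.141 in DESeq2), and its edgeR adjusted p was 0.119 when control 2 was left out and 0.0704, 0.188 and 0.0876 when knockdown 1, 2 or 3 was.

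With both rows summed, FABP5 was at 1707, 1463 and 1303 CPM in the controls and at 1283, 1265 and 1259 CPM in knockdown. That sum, added after the data were seen, went from 1491 ± 203 to 1269 ± 12.6 CPM (SD, n = 3 each). The log2 fold change was -0.23 ± 0.07 SE and the edgeR adjusted p 0.0963, so it was not called. Leaving out control 1 gave -0.12 and 0.131, and leaving out control 3 gave -0.32 and 0.00297, a call. The pseudogene row took 21.6%, 21.7% and 20.8% of the summed counts in the controls and 19.9%, 18.8% and 20.6% in knockdown (exact permutation test of the difference, two-sided p = 0.1, the smallest that 3 against 3 allows).

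**Figure D2:**
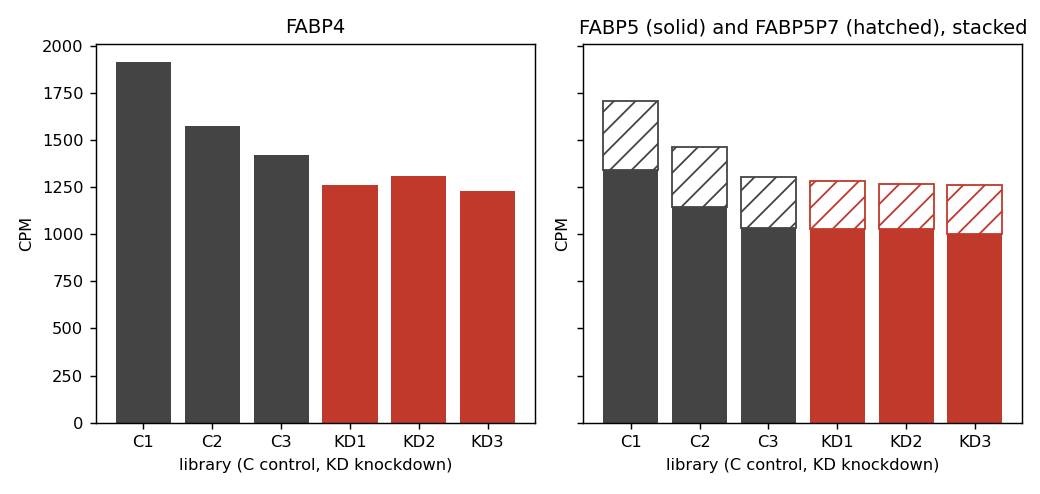
CPM per library (bars from 0) of FABP4 on the left, and of FABP5 with FABP5P7 stacked on it on the right, for controls C1 to C3 and knockdown KD1 to KD3. C1 is the highest and C3 the lowest control in both panels (1913 and 1419 CPM for FABP4), while the knockdown libraries are nearly level.

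FABP4, FABP5 and CD36 varied more between controls than between knockdown libraries. The coefficient of variation was 15.5% in the controls and 3.2% in knockdown for FABP4, 13.2% and 1.57% for FABP5, and 8.64% and 1.15% for CD36. Over the 8837 tested genes with a mean of at least 10 CPM, the median was 5.92% in the controls and 4.2% in knockdown. Control 1 was the highest control for FABP4, FABP5, CD36, PPARG, PLIN2 and PDK4. Mitochondrially encoded mRNA ran the other way within the controls, at 1.88% of counts in control 1, 2.3% in control 2 and 2.54% in control 3, and 12 of the 13 such mRNAs lay below 0 on the log2 scale (median -0.16), MT-ND3 past the threshold. Their part in the FABP4 result was not tested. In bulk libraries, fewer cells that make a transcript and less of it per cell cannot be told apart.

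The genes that followed FABP4 most closely over the 6 libraries, by the same search, were FAM96A (Pearson r = 0.99), KLHL12 (0.99) and KYNU (0.99). KYNU, an enzyme of tryptophan breakdown, was at 301.1, 262.1 and 247.0 CPM in the controls and at 235.6, 232.2 and 230.7 CPM in knockdown. None of the 3 passed the threshold (edgeR adjusted p = 0.0732, 0.185 and 0.0729), and part of their likeness is that all were highest in control 1 and lowest of the controls in control 3.

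LPL, the lipase that releases fatty acids from lipoproteins, moved the other way. LPL (ENSG00000175445.15, chromosome 8, 19901717 to 19967259, plus strand) was at 187.8, 178.6 and 196.3 CPM in the controls and at 207.6, 223.4 and 225.6 CPM in knockdown. Here control 3 was the highest control, and every knockdown library was above it. LPL rose from a mean of 188 ± 8.84 CPM to 219 ± 9.83 (SD, n = 3 per group), a log2 fold change of 0.22 ± 0.05 (SE; 95% interval 0.12 to 0.33, edgeR adjusted p = 0.0246). DESeq2 also called it (adjusted p = 0.0046), but edgeR's adjusted p was 0.160 when control 2 was left out, and 0.150 or 0.148 when knockdown 2 or 3 was.

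ANGPTL4, which inactivates LPL outside the cell, was barely detected. Its counts were 3, 4 and 7 in the controls and 6, 6 and 1 in knockdown, or 0.430 ± 0.212 and 0.329 ± 0.217 CPM (SD, n = 3 each), close to the level of 3 counts. It did not pass the filter on low counts. Fitted without that filter, its log2 fold change was -0.35 with a 95% interval from -1.78 to 1.08 (edgeR adjusted p = 0.890). RAB11B-AS1, which overlaps ANGPTL4 in antisense, had 16 to 24 counts.

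The genes of storage and of entry into oxidation gave no call. PLIN2 (ENSG00000147872.9, chromosome 9, 19108375 to 19149290, minus strand), the droplet coat protein, was at 172.8, 153.4 and 158.2 CPM in the controls and at 163.2, 170.4 and 157.9 CPM in knockdown. Its log2 fold change was 0.02 (95% interval -0.09 to 0.13, edgeR adjusted p = 0.891). CPT1A (ENSG00000110090.12, chromosome 11, 68754620 to 68844410, minus strand), the gate to mitochondrial oxidation, was at 54.8, 58.2 and 53.8 CPM in the controls and at 55.5, 56.8 and 61.1 CPM in knockdown, a log2 fold change of 0.05 (95% interval -0.08 to 0.18, edgeR adjusted p = 0.749). For both genes the groups overlapped.

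PDK4, the pyruvate dehydrogenase kinase induced when fat is burned, was near the limit of detection. PDK4 (ENSG00000004799.7, chromosome 7, 95583499 to 95596491, minus strand) had 12, 12 and 9 counts in the controls and 8, 7 and 9 in knockdown. In CPM these were 1.13, 1.00 and 0.865 against 0.647, 0.490 and 0.738, so the groups did not overlap after scaling although the counts tied. PDK4 met the filter only through the control libraries, which favours a lower value in knockdown. Its log2 fold change was -0.68 with a 95% interval from -1.48 to 0.12 (edgeR adjusted p = 0.421).

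**Figure D3:**
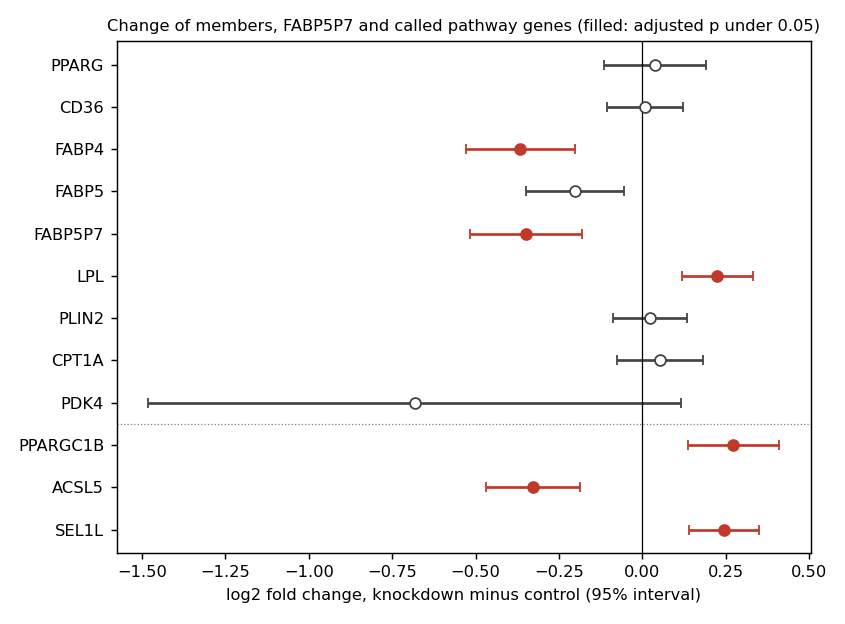
Log2 fold change of knockdown against control (x axis) with its 95% interval for the 8 tested members and FABP5P7 (above the dotted line) and the 3 called pathway genes (below it), filled where the edgeR adjusted p was under 0.05. FABP4 lies at -0.37 and LPL at 0.22, while PPARG, CD36, PLIN2 and CPT1A lie within 0.06 of 0.

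Ratios between members within a library need no scaling between libraries. The log2 ratio of FABP4 to FABP5 was 0.52, 0.46 and 0.46 in the controls and 0.30, 0.35 and 0.30 in knockdown, or a geometric mean of 1.39 and 1.25 FABP4 counts per FABP5 count. Against the sum of FABP5 and FABP5P7, added after the data were seen, these were 1.09 and 0.999, a log2 difference of -0.13 where FABP5 alone gave -0.16, with the groups still apart (exact permutation p = 0.1). The log2 ratio of CD36 to FABP4 was -1.78, -1.71 and -1.56 in the controls and -1.31, -1.39 and -1.26 in knockdown, a difference of 0.37. With CD36 at a log2 fold change of 0.01, that difference repeats the -0.37 of FABP4 and is not a separate result. For FABP4 to FABP5 and for CD36 to FABP4 the groups were fully apart, and the exact permutation test gave a two-sided p = 0.1 for each, the smallest it can give with 3 against 3 (0.2 after Benjamini-Hochberg adjustment over the 4 pairs compared). The ratio of PLIN2 to CPT1A differed by -0.03 (exact permutation p = 0.8), and that of ANGPTL4 to LPL by -0.76 (exact permutation p = 0.5), with 1 to 7 counts of ANGPTL4 behind each value. The latter was -0.07 without knockdown 3, -0.45 without control 3 and -1.18 without knockdown 1.

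Levels between genes were compared per length, as CPM per kb of annotated exon. In the controls FABP4 had 1171 ± 181 and FABP5 564 ± 74.7 CPM per kb (SD, n = 3), far above CD36 at 46.5 ± 4.01, LPL at 42.8 ± 2.02 and PLIN2 at 31.8 ± 1.99. CPT1A followed at 8.47 ± 0.351 and PPARG at 7.76 ± 0.444, then PDK4 at 0.221 ± 0.0296 and ANGPTL4 at 0.173 ± 0.0853 CPM per kb. The ranges of CD36 and LPL overlapped, as did those of CPT1A and PPARG and those of PDK4 and ANGPTL4. With the longest coding transcript as the length, PLIN2 (81.9 CPM per kb) came above LPL (48.8) and PPARG (17.3) above CPT1A (10.6), while FABP4 (1738), FABP5 (1188) and CD36 (214) stayed the 3 highest and PDK4 (0.280) came next to last. By that length the ranges of CD36 (203 to 235) and LPL (46.4 to 51.0) were far apart, and those of PPARG (16.4 to 18.4) and CPT1A (10.3 to 11.1) no longer overlapped, so the order of the middle members depends on the length used. FABP4, FABP5, CD36 and ANGPTL4 overlap annotated genes on the opposite strand and PPARG a pseudogene on its own, and no source used here says whether counting kept the strands apart, so these values are less certain. The antisense gene over FABP5, AC009902.2, had 4 to 12 counts. Together the 9 members took 0.336% to 0.42% of the counts in the controls and 0.327% to 0.335% in knockdown.

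Around these members, 139 further genes of the same pathways were listed in 7 groups. Of these, 114 had a row and 108 were tested, of which 2 rose and 1 fell (2.83% of all genes were called). Their median log2 fold change was 0.03. The genes that passed were PPARGC1B, SEL1L and ACSL5.

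Receptors and cofactors had 1 of 16 tested genes higher and none lower, with a median log2 fold change of 0.03. PPARGC1B, a coactivator of nuclear receptors that promotes mitochondrial and fatty acid oxidation genes, rose from a mean of 42.4 ± 2.64 CPM to 51.3 ± 1.76 (SD, n = 3 per group; log2 fold change 0.27, edgeR adjusted p = 0.0319). DESeq2 gave it an adjusted p of 0.0546, and of the edgeR fits that left out 1 library 1 kept the call, the one without control 3 (adjusted p = 0.0331), with 0.060 and 0.0811 when control 1 or 2 was left out and 0.0887, 0.119 and 0.158 when knockdown 1, 2 or 3 was. Among the most abundant genes of the group, the partner receptor RXRA (log2 fold change 0.02) and the acetyltransferase EP300 (0.04) did not pass the threshold.

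Lipases and their partners had 1 of 17 tested genes higher and none lower, with a median of 0.06. SEL1L, an endoplasmic reticulum protein needed for LPL to mature, rose from a mean of 119 ± 6.56 CPM to 141 ± 1.41 (SD, n = 3 per group; log2 fold change 0.24, edgeR adjusted p = 0.0137). DESeq2 also called SEL1L (adjusted p = 0.00394). Its adjusted p in edgeR was 0.105 when control 2 was left out and 0.0633, 0.080 and 0.0876 when knockdown 1, 2 or 3 was. The lysosomal acid lipase LIPA, at 1523 CPM in the controls, had a log2 fold change of -0.06, the LPL cofactor APOC2 one of 0.05 and APOE one of 0.15, none past the threshold.

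Binding, uptake and activation genes had 1 of 13 tested genes lower and none higher, with a median of 0.03. ACSL5, which activates fatty acids with coenzyme A, fell from a mean of 55.1 ± 4.49 CPM to 43.9 ± 0.622 (SD, n = 3 per group; log2 fold change -0.33, edgeR adjusted p = 0.013). DESeq2 also called ACSL5 (adjusted p = 0.0116). ACSL5 overlaps ZDHHC6 on the opposite strand, which had 316 to 436 counts. The edgeR adjusted p of ACSL5 was 0.071 when control 2 was left out and 0.0642, 0.0713 and 0.0737 when knockdown 1, 2 or 3 was. The most abundant genes of this group were SCARB2 (log2 fold change 0.03) and SCARB1 (-0.16), named for the class B scavenger receptor family, and the synthetase ACSL4 (0.12). None of them passed the threshold.

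No tested gene passed among 11 other PPAR targets, 19 genes of the lipid droplet and triglyceride synthesis, 24 of fatty acid oxidation and 13 of pyruvate dehydrogenase and its regulators. Their medians were 0.00, 0.03, 0.00 and 0.02, and the smallest adjusted p values in edgeR were 0.147, 0.219, 0.301 and 0.153. DESeq2 and limma-voom also called 0 in each. At an unadjusted edgeR p under 0.05 there were 2, 2, 1 and 3 genes, all higher except 1 of the other PPAR targets. In the groups with a call, 6 of 17 tested lipase genes and partners passed that level higher and 1 lower. Receptors and cofactors had 3 of 16 higher and 0 lower, and binding, uptake and activation genes 2 higher and 2 lower of 13. Over all genes tested, 6.89% passed that level higher and 8.21% lower. Among the most abundant, the synthetase ACSL1 had a log2 fold change of 0.13, the uncoupling protein UCP2 of 0.02 and the glycerol kinase GK of 0.01. For triglyceride synthesis and droplets AGPAT3 had 0.04, AUP1 -0.01 and GPAT4 -0.03. The oxidation enzymes HADHA, HADHB and HSD17B4 had -0.09, -0.02 and -0.07, and the pyruvate dehydrogenase subunits DLD, DLAT and PDHB had -0.09, 0.10 and -0.04.

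**Figure D4:**
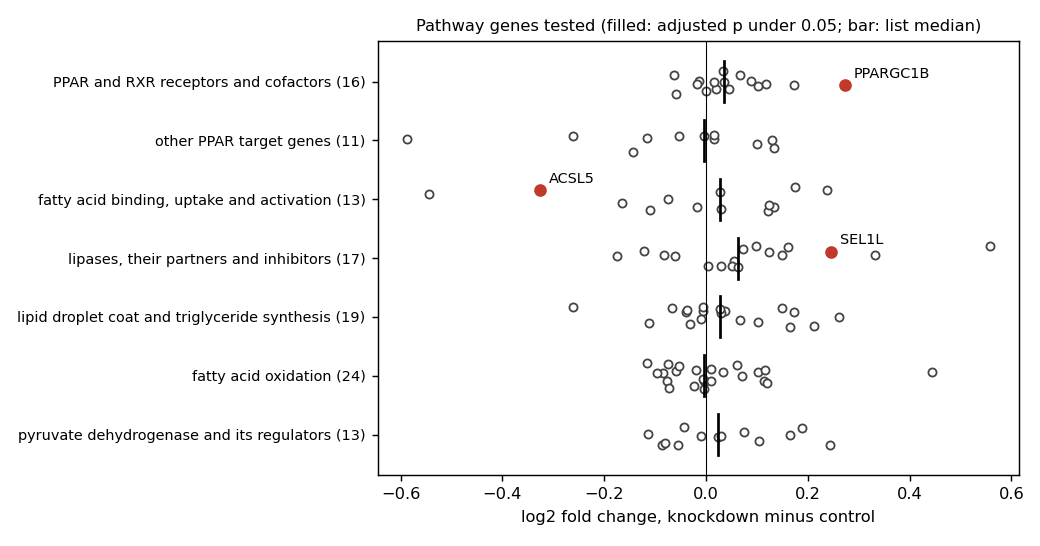
Log2 fold change of knockdown against control (x axis) for each tested gene of the 7 pathway groups (rows, number of genes in brackets), filled where the edgeR adjusted p was under 0.05, with a bar at each group's median. The 3 filled points are PPARGC1B (0.27), SEL1L (0.24) and ACSL5 (-0.33), and all 7 medians lie between 0.00 and 0.06.

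IL-4 response genes were read beside the members, since IL-4 acts upstream of PPARG. Of 10 such genes 3 were called lower and none higher (median log2 fold change -0.10): the chemokines CCL22 (-0.65) and CCL17 (-0.51) and the transglutaminase TGM2 (-0.18). Of the 10, 2 lay above 0, MRC1 (0.46, at 1.76 CPM in the controls) and CISH (0.09), neither past the threshold. STAT6 itself was at -0.06 (edgeR adjusted p = 0.606). Macrophage markers had 2 of 10 higher, CD14 (0.34) and CD163 (0.40), and 1 lower, LYZ (-0.40). Over all genes tested, 1.61% were called lower and 1.22% higher. These values stand beside the fall of FABP4 and the rise of LPL, and a link was not tested.

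**Figure D5:**
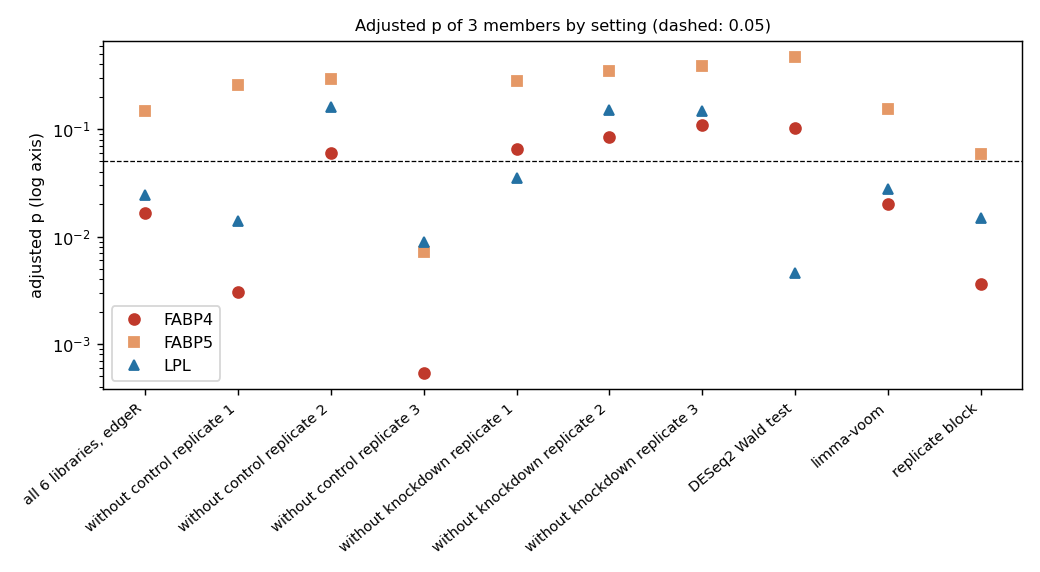
Adjusted p (log axis) of FABP4, FABP5 and LPL with all 6 libraries in edgeR, with each library left out in turn, and with DESeq2, limma-voom and the replicate number as a block, with a dashed line at 0.05. FABP4 crosses the line in 5 of the 9 alternatives, LPL in 3, and FABP5 falls under it in 1.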

How the data were processed

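Polyadenylated RNA of 3 control and 3 knockdown libraries was measured, grouped by their titles. The authors deposited estimated counts per gene symbol, in whole numbers. Salmon 0.11.2, DESeq2 and hg38 are named, per the submitters' processing notes, with no roles given. Rounding, annotation and use of strand are not given in the sources used here. The lowest row sum was 10.

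Knockdown was compared with control over all 17042 genes with edgeR 4.0.16 (quasi-likelihood, TMM, filterByExpr, two-sided, Benjamini-Hochberg over the 13405 genes kept, threshold 0.05). The standard error is the log2 fold change over the square root of F, an approximation, and the 95% interval uses the t distribution with the fit's total degrees of freedom. Ratios of members used counts plus 0.5 and an exact permutation test. Positions, lengths and overlaps came from GENCODE 29 on GRCh38, start-site windows from RefSeq (GRCh38.p14). Alternatives were RLE and upper-quartile scaling, DESeq2 1.42.0, limma-voom (limma 3.58.1), no filter, at least 1 CPM in at least 3 libraries, a threshold of 0.01, a replicate block, each library left out in turn, and summing FABP5 with FABP5P7 (chosen after seeing the data). R 4.3.3 and Python 3.11.15 were used.

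Named genes were the 9 members, every pathway gene past the threshold, the 3 most abundant genes of each pathway group, and the 3 genes most like PPARG and FABP4 (mean log2 CPM of at least 3). A gene that this rule names is not reported here. FABP5P7 and marker genes were named after their values were seen. The members and lists were chosen with earlier results of these data known.

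On simulated data for the same comparison (13405 genes, 200 changed, 5 draws) edgeR found 45.6% of true 1.25-fold changes and 68.4% of true 1.5-fold changes, while 8.36% of the genes it called had not been changed. The changed genes were drawn at random over all levels, with the same dispersion in both groups, whereas the real controls varied more. These rates are therefore not rates for the members. No library duplicated another of its group.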

Additional observations from a re-analysis of the deposited data

How the results depend on the processing

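PPARG, CD36, FABP5, PLIN2, CPT1A and PDK4 gave no call in any alternative, apart from FABP5 without control replicate 3. DESeq2 gave PDK4 no adjusted p, so it was not open to a call there. The count of members called lower was 0 in DESeq2, and at an adjusted p under 0.01 it was 0 lower and 0 higher. When any 1 library was left out, 0 to 2 members came out lower and 0 to 1 came out higher. Pathway genes called were 1 higher in DESeq2, 0 higher and 0 lower at 0.01, and 0 to 3 in each direction with 1 library left out. Over all genes 163 were higher and 216 lower, against 56 and 94 at 0.01, and, with fewer libraries per fit, 55 to 214 were higher and between 84 and 328 lower when any 1 was left out. The PLIN2 to CPT1A ratio reversed its sign, with a difference from -0.102 to 0.0342 when 1 library was left out. That of ANGPTL4 to LPL ran from -1.18 to -0.07. The cause of these differences was not tested.

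Same-numbered control and knockdown libraries had correlations of their deviations of 0.117, 0.185 and 0.0746, not all above 0.1, so the numbers were not taken as pairs, although each library correlated best with its own number. With the replicate block 1 member was higher and 1 lower, 2 pathway genes were higher and 1 lower, and 200 genes were higher and 288 lower. FABP4 then had a log2 fold change of -0.36 (edgeR adjusted p = 0.00359). PDK4 could not be fitted with at least 1 CPM in 3 libraries, which removed it, and ANGPTL4 and PDK4 are limited by depth.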
